A study of Caenorhabditis elegans with 2 samples.

Results

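The genes described here encode the proteins of the mitochondrial ribosome of the nematode Caenorhabditis elegans, and the measurement is where SNPC-4 sat around them in ChIP-seq. They were chosen by name, as every protein-coding gene of the WBcel235 annotation called mrpl- (large subunit) or mrps- (small subunit). This gave 71 of 19983 protein-coding genes, 42 for the large and 29 for the small subunit. The single group of 2 biological replicates came from whole hermaphrodites of the transgenic strain YL551, which stably expresses SNPC-4 with a GFP-FLAG tag at its C terminus; which promoter drives the fusion is not stated in the labels. The worms were young adults, taken 60 hours after synchronisation as starved L1 larvae, and an anti-GFP antibody was used to pull down the tagged protein with its chromatin. Only this group was analysed here, so the genes are set against the other protein-coding genes of the same libraries. Whole worms mix germline and somatic nuclei, which cannot be told apart here.

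Mitochondria make a handful of their proteins, nearly all subunits of the respiratory chain, on ribosomes of their own. The ribosomal RNA comes from the mitochondrial genome, whereas the proteins are encoded in the nucleus, translated in the cytosol and imported, so both genomes must supply matching parts. Some of the proteins descend from those of the bacterial ancestor and others were added during mitochondrial evolution; in C. elegans, lowering mrps-5 is known to induce the mitochondrial unfolded protein response and to lengthen life. SNPC-4 is the DNA-binding, Myb-domain subunit of SNAPc, the complex that starts transcription at snRNA genes and, in worms, at spliced leader and piRNA genes.

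The sequences around 4 of the strongest SNPC-4 summits at these genes show what the protein's peaks lay on. Each runs 101 bases on the strand of the gene, centred on the summit, from build WBcel235 (ce11). The windows are chrIV:14767882-14767982 (minus strand), with its centre 202 bp upstream of the annotated 5' end of mrps-7, chrII:156066-156166 (minus strand), 107 bp upstream of mrpl-28, chrIII:8449413-8449513 (plus strand), 294 bp upstream of mrpl-32, and chrV:12728425-12728525 (plus strand), 156 bp upstream of mrpl-49. None overlaps an annotated exon. Capitals mark GCGCG on either strand, which overlaps itself as GCGCGC, and CGCAAAC on either strand, which reads GTTTGCG on the other one.
mrps-7: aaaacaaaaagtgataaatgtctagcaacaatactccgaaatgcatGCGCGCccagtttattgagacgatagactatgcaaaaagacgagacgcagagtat
mrpl-28: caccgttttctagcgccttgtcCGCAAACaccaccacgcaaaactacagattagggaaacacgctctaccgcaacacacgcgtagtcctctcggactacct
mrpl-32: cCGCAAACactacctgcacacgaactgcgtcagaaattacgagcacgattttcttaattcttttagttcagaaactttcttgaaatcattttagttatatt
mrpl-49: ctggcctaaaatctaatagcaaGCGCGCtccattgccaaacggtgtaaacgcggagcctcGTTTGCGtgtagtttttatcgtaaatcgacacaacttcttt

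SNPC-4 candidate regions lay at most of the mitochondrial ribosomal protein genes, but few had a pooled signal high enough for the deposited peak list. A peak below is an entry of the deposited list that passed the irreproducible discovery rate (IDR) filter, which compares both replicates, and a candidate is an entry of the unthresholded list from the pooled reads. The unthresholded list is labelled as peaks and background, and its −log10 q-values ran from 0.122 to 3.90. A candidate alone therefore does not show that SNPC-4 was bound there. The peaks were exactly the 2950 strongest pooled entries, so whether a candidate counts as a peak is a cut on its pooled signal. A gene had a peak or a candidate when the summit lay within 500 bp of any of its annotated 5' ends. An IDR peak was found at 12 of 71 genes (16.9%, exact 95% binomial interval 9.05 to 27.7%), against 1491 of 19912 other protein-coding genes (7.49%), a ratio of 2.26. A candidate summit was found at 59 of 71 genes (83.1%, 72.3 to 90.95%), against 7177 of 19912 others (36.04%), a ratio of 2.31. Among genes that had a candidate, 12 of 59 (20.3%, 11.0 to 32.8%) reached an IDR peak, against 20.8% of the other genes, a ratio of 0.979. The shares thus differed in how many genes had a candidate at all, while at this distance a candidate was an IDR peak about as often as elsewhere. The other genes include the 12 protein-coding genes of the mitochondrial genome, all with an IDR summit; without them the share was 7.43% of 19900 nuclear genes. The intervals cover counting error over genes only, and no test over samples was run with 1 group of 2 replicates.

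The ratio of the IDR shares depended on how a gene and a peak were joined: it was 0.914 with summits within 100 bp and 3.94 where a region had to cover the 5' end, and 1.16 when only the stronger 1475 peaks were used. Among genes with a candidate the ratio was 0.316 within 100 bp (1 of 25, 4%, against 12.7%). With the stronger peaks it was 0.504 (3 of 59, 5.08%, against 10.1%). The share of candidates that were peaks was then lower than at other genes, but it rests on 1 and 3 genes and carries no interval. With the 2950 strongest regions of 1 replicate in place of the IDR list, 9 genes had one in replicate 1 and 13 in replicate 2, or 15.5 ± 3.98% of the mitochondrial ribosomal protein genes against 7.10 ± 0.60% of the others (mean ± SD, n = 2 replicates).

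**Figure D1:**
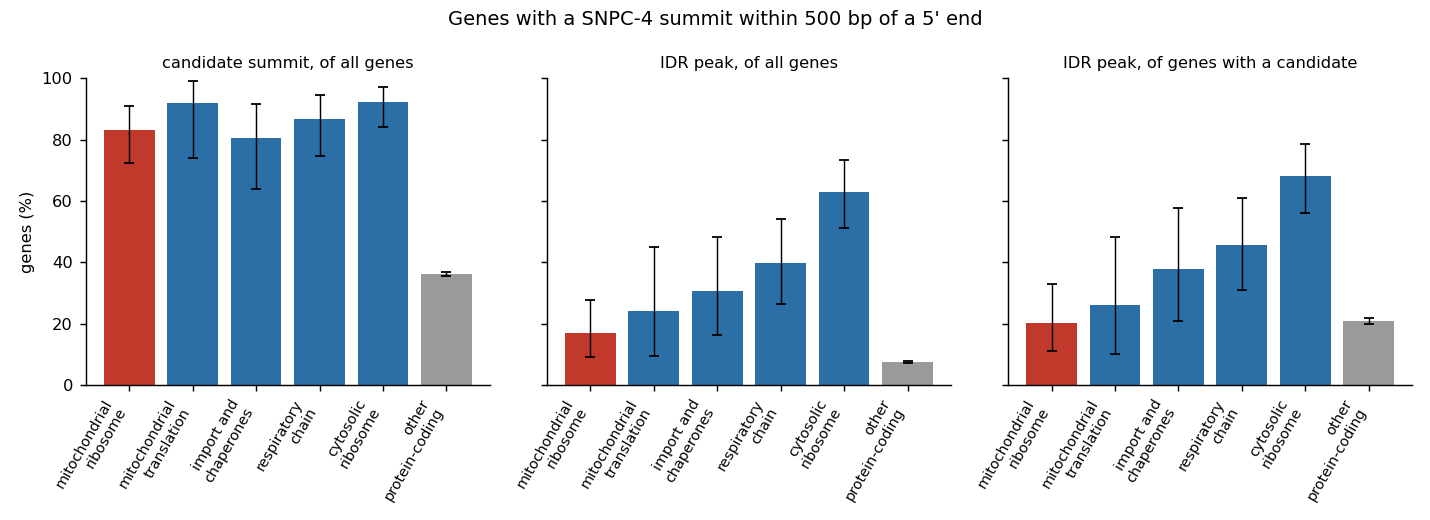
Share of genes (%) with a candidate summit, with an IDR peak, and with an IDR peak among those with a candidate, for the mitochondrial ribosomal protein genes, 4 related gene lists and all other protein-coding genes; bars are shares and lines exact 95% binomial intervals. The mitochondrial ribosomal protein genes had candidates at 83.1%, against 80.6 to 92.3% in the related lists, but among candidates their share of IDR peaks (20.3%) was close to that of the other genes (20.8%).

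The signals of the 12 peaks were mostly low. Signal is the peak caller's score, whose scale depends on depth, so each list's signal was divided by its own median at the IDR peaks (140.2 pooled, 71.8 in replicate 1 and 79.5 in replicate 2), and a value of 1 means a signal as high as the middle IDR peak. The 12 pooled signals had a median of 104 (0.745 relative) and ran between 87.4 and 214, whereas the 1491 other genes had a median of 138 and reached 14797. Only 3 of the 12 lay above the middle IDR peak. The median relative signal was 0.745 in replicate 1 and 0.831 in replicate 2, or 0.788 ± 0.061, against 0.948 ± 0.055 for the other genes (mean ± SD, n = 2 replicates); the means differed by more than either SD. Of the 12 peaks, 6 were among the 2950 strongest regions of both replicates and 6 of 1 replicate only.

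The strongest 3 peaks lay at genes for proteins with bacterial counterparts. At mrps-7, which encodes uS7m, the counterpart of the bacterial protein that organises the head of the small subunit, the summit at chrIV:14767932 had a relative signal of 1.25 in replicate 1 and 1.56 in replicate 2 and ranked 781 in the pooled list. At mrpl-28 (bL28m, large subunit) the relative signal was 1.10 and 1.59, with rank 827. Both genes exceeded the middle IDR peak in both replicates, with summits that moved by at most 3 bp between replicate and pooled lists. The gene mrpl-32 (bL32m, large subunit) had 1.59 in replicate 1 and 1.01 in replicate 2, with rank 1060. Here the order of the replicates was the opposite, and the summits lay 307 bp (replicate 1) and 340 bp (replicate 2) upstream, against 294 bp in the pooled list.

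A middle group of 4 peaks had pooled relative signals between 0.740 and 0.934. The gene mrpl-17 encodes bL17m, a large-subunit protein, and had 0.959 in replicate 1 and 0.719 in replicate 2. The genes mrpl-49 and mrpl-55 encode mL49 and L55, large-subunit proteins without a bacterial counterpart. The relative signals of mrpl-49 were 0.790 and 0.845, and those of mrpl-55 were 0.599 and 0.817. The gene mrps-16, for the small-subunit protein bS16m, had 0.738 and 0.746. Values of mrps-16 and mrpl-49 differed little between replicates, and mrpl-55 was outside the 2950 strongest regions of replicate 1.

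The last 5 peaks lay just above the lowest signal in the IDR list, which was 84.4, or 0.602 on the relative scale. The pooled signals were 92.0 at mrpl-13 (L13, large subunit), 89.9 at mrps-6 (bS6m, whose bacterial counterpart pairs with S18 in the small subunit), 89.4 at mrps-31 (mS31), 88.2 at mrpl-35 (bL35m) and 87.4 at mrps-35 (mS35). The replicates differed most at mrps-6, with a relative signal of 0.271 in replicate 1 and 1.00 in replicate 2. There the replicate 1 summit lay 67 bp upstream, against 269 bp in the pooled list and 287 bp in replicate 2. The mrps-6 values thus come from different summits inside the pooled region. At mrpl-35 the relative signals were 0.396 and 0.852. Replicate 2 was thus the higher at both, while mrpl-13 had 0.752 in replicate 1 and 0.404 in replicate 2. The remaining pair differed less, mrps-31 with 0.567 and 0.653 and mrps-35 with 0.539 and 0.650. Replicate summits also lay apart at mrpl-13, mrpl-35 and mrps-31, by less than at mrps-6. Over the 12 peaks, 9 were relatively higher in replicate 2 and 3 in replicate 1. The other genes with an IDR peak leaned the same way, with median relative signals of 0.909 in replicate 1 and 0.987 in replicate 2.

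Another 47 genes had only a candidate, with pooled signals of 18.9 to 80.1 and a median of 42.1. The 5 strongest lay below the lowest IDR signal of 84.4, at ranks 3178 to 3893 of the pooled list. They were mrpl-50 at 80.1, mrps-24 at 77.5, mrps-18B at 74.6, mrps-10 at 70.6 and mrpl-9 at 69.1. Of the 47, 23 had a signal of at least 42.2, which is 0.5 times the lowest IDR signal. At mrpl-50 the relative signal was 0.332 in replicate 1 and 0.717 in replicate 2, and at mrps-24 it was 0.512 and 0.592. A replicate summit fell inside the pooled region in both replicates for 34 of the 47 and in 1 replicate for 13. The longevity gene mrps-5 belonged here, with a pooled signal of 37.0 and a summit 134 bp downstream of its 5' end. Over all genes with a candidate, the median pooled signal was 48.3 at the mitochondrial ribosomal protein genes and 41.0 at the others.

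The other candidates were at mrpl-1, mrpl-4, mrpl-10, mrpl-11, mrpl-16, mrpl-18, mrpl-19, mrpl-20, mrpl-21, mrpl-23, mrpl-24, mrpl-34, mrpl-36, mrpl-39, mrpl-40, mrpl-41, mrpl-42, mrpl-44, mrpl-48, mrpl-51, mrpl-53 and mrpl-54 of the large subunit, and at mrps-2, mrps-9, mrps-11, mrps-12, mrps-14, mrps-15, mrps-17, mrps-18.C, mrps-18A, mrps-18C, mrps-21, mrps-22, mrps-23, mrps-25, mrps-26, mrps-28, mrps-30, mrps-33 and mrps-34 of the small subunit. No candidate summit was listed within 500 bp of mrpl-2, mrpl-12, mrpl-15, mrpl-22, mrpl-30, mrpl-37, mrpl-38, mrpl-45, mrpl-46, mrpl-47, mrpl-58 or mrps-27. Of these 12, replicate 1 listed a region for 3 and replicate 2 for 5, with mrps-27 in both, and 5 had none in either replicate. The listing covers 30000 entries per list, so a gene without one has a signal below the end of the list or a summit farther away, and absence of SNPC-4 cannot be read from it.

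**Figure D2:**
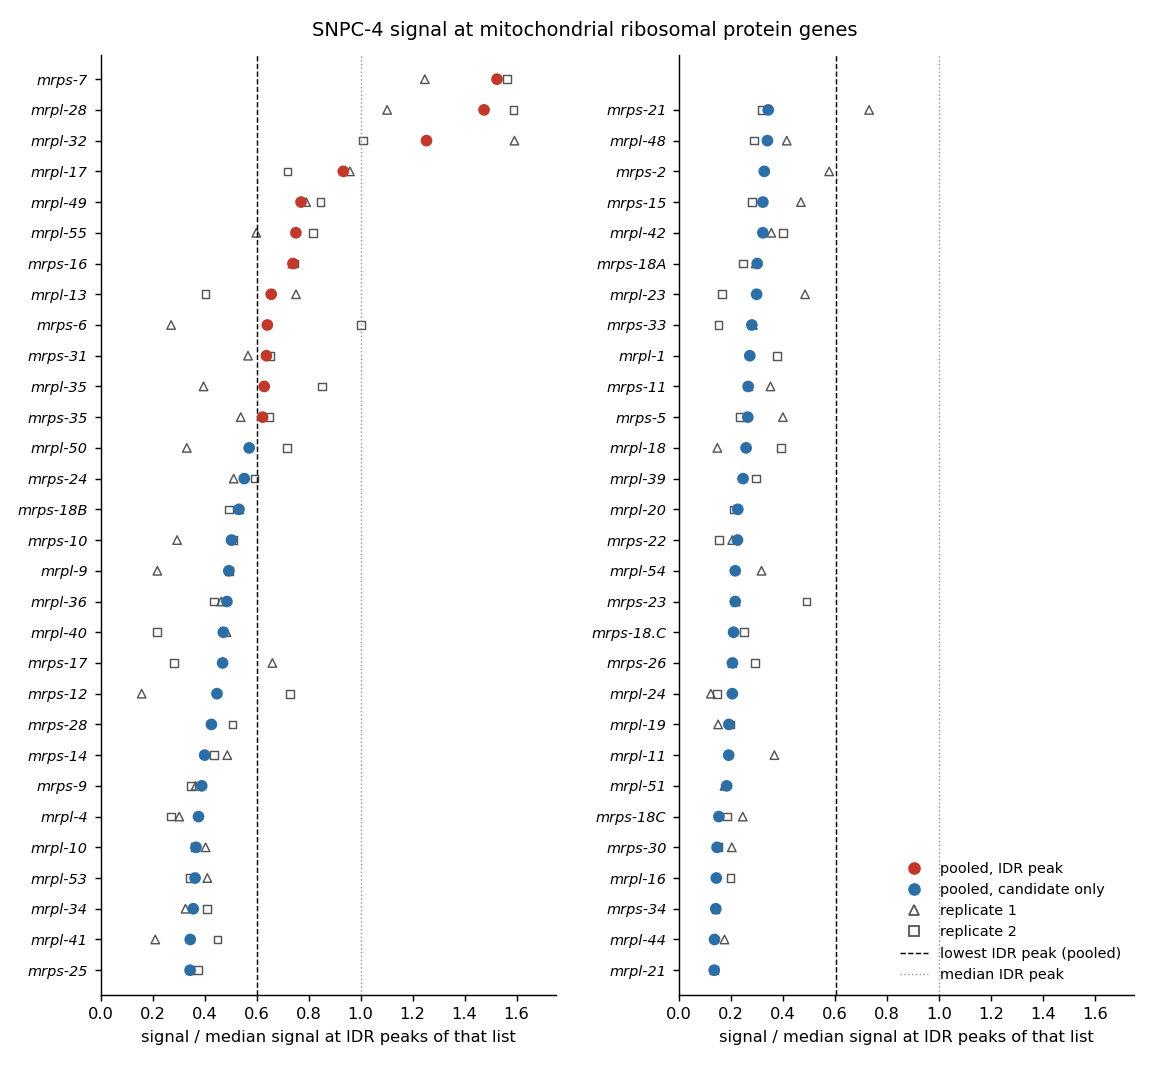
Relative signal (signal over the median signal at IDR peaks of the same list) at the 59 mitochondrial ribosomal protein genes with a pooled candidate, strongest first. Filled points are pooled values (red, IDR peak; blue, candidate only), open triangles and squares the replicates, dashed lines the lowest and dotted lines the middle IDR peak; only mrps-7, mrpl-28 and mrpl-32 have pooled values above 1.

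**Figure D3:**
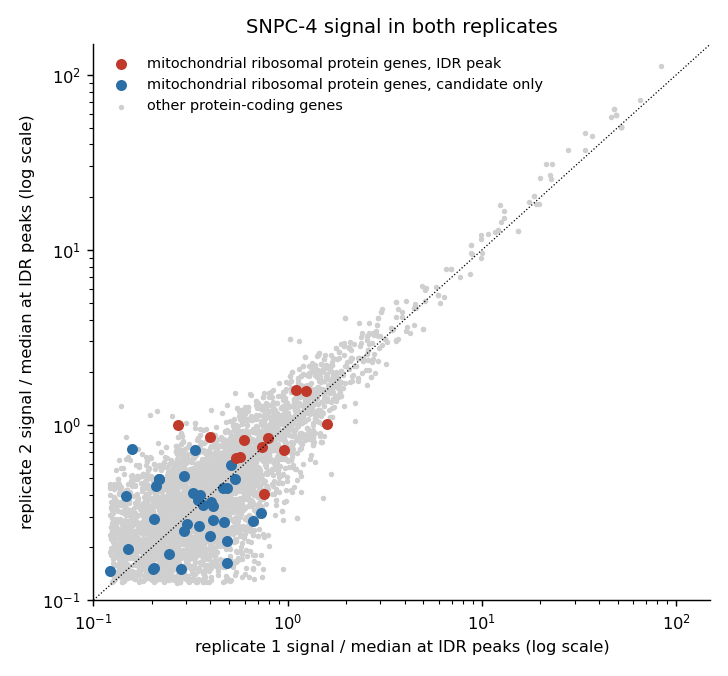
Relative signal in replicate 1 (horizontal) and replicate 2 (vertical), both on log scales, at mitochondrial ribosomal protein genes with an IDR peak (12, red) or only a candidate and a replicate summit in both replicates (34 of 47, blue), and at 4653 other protein-coding genes with both values (grey). The mitochondrial ribosomal protein genes lie in the lower left, none above a relative signal of 1.59, while the grey points go on past 100 in replicate 2.

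The subunits had IDR peaks about equally often and candidates unequally. The large subunit had 7 IDR peaks among 42 genes (16.7%, 6.97 to 31.4%) and the small subunit 5 among 29 (17.2%, 5.85 to 35.8%). Candidates were listed at 31 of 42 large-subunit genes (73.8%, 58.0 to 86.1%) and at 28 of 29 small-subunit genes (96.6%, 82.2 to 99.9%), with intervals that overlapped. Of the 12 genes without a candidate, 11 belonged to the large subunit. The same order was seen in replicate 1 (69.0% and 89.7%) and in replicate 2 (81.0% and 96.6%). The number in the gene's name roughly parts proteins of bacterial descent from later additions. The 41 genes with low numbers (mrpl- up to 36, mrps- up to 21) had 8 IDR peaks (8.82 to 34.9%) and 36 candidates, and the 30 with higher numbers had 4 (3.76 to 30.7%) and 23, with overlapping intervals. Names and annotated products did not always match, and all genes are counted here by name. The low-numbered mrpl-34 is annotated as mL43, whereas the higher-numbered mrpl-47 and mrps-24 are annotated as uL29m and uS3m, so numbers and descent differ at these. Further, mrps-18C is annotated as uL3m, mrpl-48 as a protein with a domain of the small-subunit protein uS10, mrpl-58 as mL62 and mrps-27 as a protein with an Ig-like domain.

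The IDR summits at these genes mostly lay 100 to 300 bp upstream of the 5' end. The 12 IDR summits had a median position of 154.5 bp upstream, and 11 were upstream, the exception being mrpl-13 at 20 bp downstream. Most IDR summits of the other genes were upstream too, at 1275 of 1491 (85.5%), within the interval of the 12 (61.5 to 99.8%). Between 100 and 200 bp upstream lay 7 of the 12 (58.3%), against 348 of 1491 (23.3%) at the other genes, whose median was 194 bp upstream. In replicate 1 the median of the 12 was 204 bp upstream with 3 in that band, and in replicate 2 it was 156.5 bp with 7, so the band rests on the pooled and replicate 2 summits. The 47 candidates without an IDR peak had a median of 90 bp upstream, against 81 bp at the other genes. Of the 47, 32 were upstream (68.1%, against 61.3%) and 14 were in the band (29.8%, against 15.3%). The 49 IDR summits of cytosolic ribosomal protein genes lay farther out, with a median of 300 bp upstream and 3 in the band (6.12%).

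**Figure D4:**
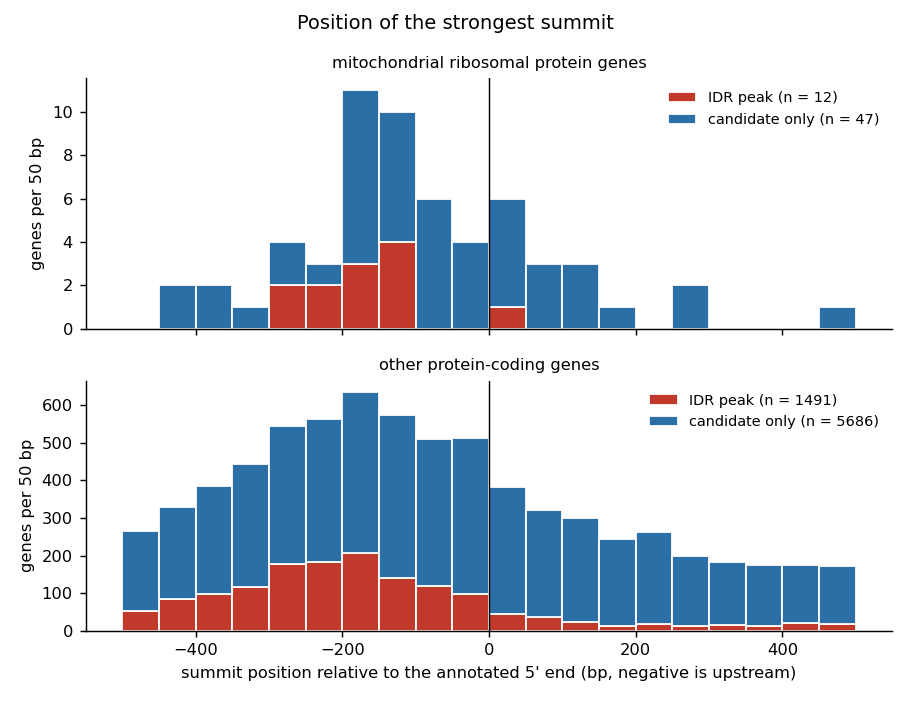
Genes per 50 bp by the position of their strongest summit relative to the annotated 5' end (bp, negative is upstream), for mitochondrial ribosomal protein genes (top) and other protein-coding genes (bottom), stacked as IDR peaks (red) and candidates only (blue). Most IDR summits of the mitochondrial ribosomal protein genes fall between 100 and 300 bp upstream, with 1 at 20 bp downstream.

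Annotated 5' ends in C. elegans are often sites where a spliced leader is joined to the message, with the start of transcription farther upstream; TTTCAG is the usual form of the worm splice acceptor. The 30 bases before the 5' ends of mrpl-32 (chrIII:8449727-8449756, plus strand) and mrpl-35 (chrIII:3510207-3510236, plus strand) end in these letters, in capitals below, and give the point from which their summits were measured. They are the 2 of 9 such stretches read that end in TTTCAG; 7 of the 9 end in AG, and those of mrpl-55 and mrps-31 do not. Whether a spliced leader is joined there was not measured.
mrpl-32 before its 5' end: ttcctctttgaagtttaaaattatTTTCAG
mrpl-35 before its 5' end: atgaaatttacctttactttttatTTTCAG
TTTCAG ended within 10 bases upstream of the 5' end, on the gene's strand, at 28 of the 71 genes (39.4%), against 3577 of 19900 other nuclear genes (17.97%). Where such a gene had a summit and a single annotated 5' end, the summit's distance was measured from a point next to these letters.

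Around the summits themselves, the 4 short elements searched first were no commoner at these genes than elsewhere. CTGTTTCA, an element of worm piRNA promoters, was searched because SNPC-4 acts there. Within 100 bp of the summit, on both strands, it was in 0 of the 12 windows, against 15 of 1491 (1.01%) at other genes. A count of 0 in 12 allows a share of up to about 25%. TATAAA was in 2 of 12 against 16.8%, GCGCG in 5 of 12 (41.7%) against 42.7%, and TTTCAG in 1 of 12 against 22.8%. The GC content of the 201-base windows had a median of 36.3% (27.9 to 39.8%), against 41.3% at other genes with an IDR peak. CGCAAAC was noticed in the printed windows of mrpl-28, mrpl-32 and mrpl-49 and then kept from 9 strings counted over all 12 windows, beside a ranking of all strings of 6 and 7 bases, so its count there is fixed in part by that choice and carries no test. It was in 5 of the 12 windows, 3 of them the windows in which it was noticed. Of the 8 windows not printed, 2 held it (mrpl-55 and mrps-16). At other nuclear genes with an IDR peak it was in 73 of 1479 (4.94%). It lay 4 to 46 bp from those 5 summits, on the gene's strand at 4 genes and on the other at mrpl-49. At candidates without an IDR peak it was in 3 of 47 windows (6.38%; mrpl-10, mrps-15 and mrps-28), against 188 of 5686 (3.31%) at other genes, and among cytosolic ribosomal protein genes with an IDR peak in 1 of 49. A match says only that these letters are there.

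Of the other nuclear genes with an IDR peak, 329 of 1479 (22.2%) had an annotated noncoding RNA gene within 500 bp of the summit. This held for 0 of the 12 summits here, which allows a share of up to about 25%. No annotated snRNA, spliced leader, tRNA or piRNA gene, then, stood beside these peaks. Among the 47 candidates, 1 had such a gene, the ncRNA B0205.16 at 311 bp from the summit of mrpl-9, against 612 of 5686 candidates at other genes (10.8%).

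Of the 12 peaks, 6 were shared with a gene read in the opposite direction. Another protein-coding 5' end lay within 500 bp of 6 of the 12 summits, against 583 of 1491 (39.1%) at the other genes, and all 6 neighbours were on the opposite strand. Opposite-strand neighbours were the usual kind at the other genes too, at 543 of 1491 (36.4%). The neighbour was nearer the summit for mrpl-35 (M01F1.4, annotated as a transmembrane protein, at 56 bp against 148 bp) and mrps-35 (sws-1, a SWIM-domain protein, at 45 bp against 111 bp). For the other 4 the mitochondrial ribosomal protein gene was nearer: mrpl-17 beside vbh-1, an RNA helicase, mrpl-49 beside rpl-28, the cytosolic ribosomal protein eL28, mrps-6 beside rpn-8, a proteasome subunit, and mrps-7 beside Y57G11C.3, a putative 6-phosphogluconolactonase. At mrps-6 the difference was small, 269 bp against 276 bp. To which gene of such a pair a peak belongs cannot be told from its position. Of the 47 candidates, 20 were shared (42.6%), against 17.01% of candidates at other genes.

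Many of these genes stand in a row behind another gene, where 1 promoter may serve several. Worms transcribe many genes in operons; as a stand-in, a gene was called internal when a protein-coding gene on the same strand ended within 1000 bp upstream, and the first gene of that run was called its head. Internal genes made up 37 of the 71 (52.1%), against 28.8% of the others. The gap was under 500 bp at 30 of the 71 (42.3%), against 17.96% of the others. Of the internal ones, 4 had an IDR peak of their own (10.8%), against 6.83% of other internal genes. The gene upstream of these 4 ended 104 bp away at mrpl-13, 410 bp at mrpl-32, 994 bp at mrpl-49 and 556 bp at mrps-16. At 14 internal genes the head of the run had an IDR peak (37.8%), against 11.8%. The first genes included rpn-3 ahead of mrpl-32, natc-1 ahead of both mrps-2 and mrpl-4, and atp-2, an ATP synthase subunit, ahead of mrps-26; these were picked out after the values had been seen. Counting a peak at either place gave 25 of 71 genes (35.2%), against 10.4% of the others. Of the 34 genes with no such gene upstream, 8 had an IDR peak (23.5%, 10.7 to 41.2%), against 7.75% of the others, a ratio of 3.03.

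Set against 16.9% of the mitochondrial ribosomal protein genes (9.05 to 27.7%), whose highest pooled relative signal was 1.52, other gene groups of the same organelle had larger shares of IDR peaks, with intervals that overlapped. The respiratory chain, whose mitochondrially encoded subunits these ribosomes translate, had an IDR peak at 21 of 53 genes (39.6%, 26.5 to 54.0%) and at 45.7% of those with a candidate. Its strongest were cox-5A and cox-5B, subunits of cytochrome c oxidase, and atp-1, the alpha subunit of ATP synthase, with pooled relative signals of 5.42, 3.19 and 2.55. Mitochondrial import and chaperones had 11 of 36 (30.6%, 16.3 to 48.1%), led by tomm-20, an import receptor, ddp-1, the Tim8 chaperone of the intermembrane space, and hsp-6, the mitochondrial Hsp70, at 2.25, 1.90 and 1.44. Mitochondrial translation factors and tRNA synthetases had 6 of 25 (24.0%, 9.36 to 45.1%), led by ears-2, a glutamyl-tRNA synthetase, gfm-1, the mitochondrial elongation factor G, and aars-1, an alanyl-tRNA synthetase, at 1.69, 1.11 and 0.868.

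The widest contrast was with the cytosolic ribosome. IDR peaks lay at 12 of 71 mitochondrial (9.05 to 27.7%) and at 49 of 78 cytosolic ribosomal protein genes (rpl- and rps-; 62.8%, 51.1 to 73.5%), and these intervals do not meet. Candidates were listed at 92.3% of the cytosolic ones, and 68.1% of those were IDR peaks. Their peaks were also higher, with a median pooled signal of 178 and values up to 11.5 relative at rpl-15, 10.6 at rpl-3 and 8.01 at rpl-18A. Among genes with a candidate, each replicate's median relative signal was taken over those with a replicate summit inside the pooled region. It was 0.371 ± 0.0063 at mitochondrial and 0.844 ± 0.0020 at cytosolic ribosomal protein genes (mean ± SD, n = 2 replicates), a gap far wider than the spread between replicates. The other protein-coding genes had 0.359 ± 0.00047. Both replicates gave a value at 34 of the 47 mitochondrial ribosomal protein genes with only a candidate, and at 4653 of 7177 other genes. These medians thus leave out genes that a replicate did not list.

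Summits accumulated over different distances in these groups. Within 200 bp of a 5' end, 67.6% of the mitochondrial ribosomal protein genes had a candidate summit, against 47.2% of the respiratory chain, 23.1% of the cytosolic ribosomal protein genes and 21.2% of the other genes. Within 400 bp the shares were 78.9%, 79.2%, 85.9% and 32.9% in the same order of groups. All 12 genes with an IDR peak had one within 300 bp, which is 16.9% of the 71 genes. Of the 49 cytosolic ribosomal protein genes with an IDR peak, 25 had one within 300 bp (32.1% of all 78 genes). Of the 1491 other genes with an IDR peak, 1095 did (5.50% of all 19912).

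**Figure D5:**
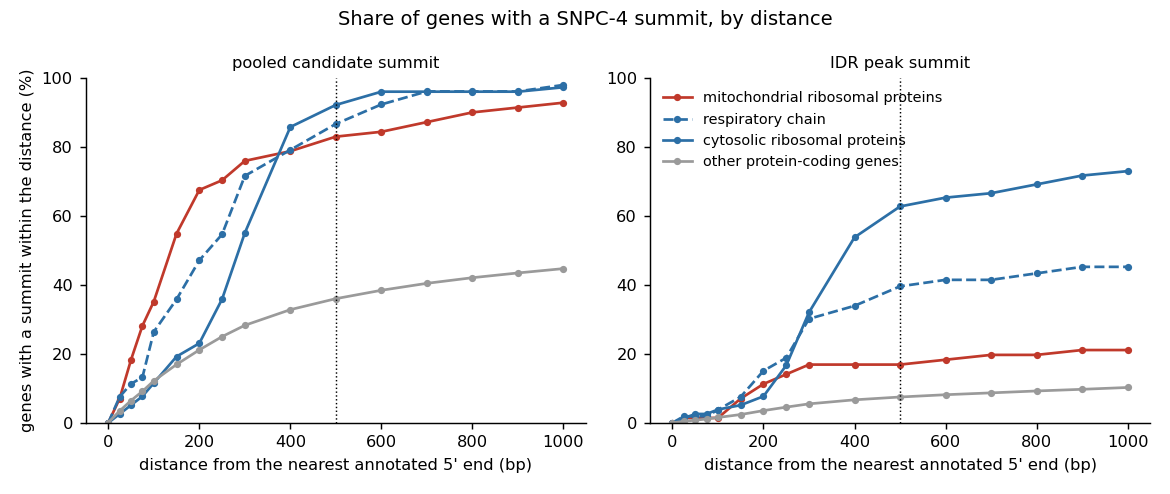
Share of genes (%) with a candidate summit (left) or an IDR peak summit (right) within a given distance (bp) of the nearest annotated 5' end, for the mitochondrial ribosomal protein genes, the respiratory chain, the cytosolic ribosomal protein genes and the other protein-coding genes; the dotted line marks 500 bp. Candidates at the mitochondrial ribosomal protein genes accumulate closest to the 5' end (67.6% within 200 bp), while the IDR share stays at 16.9% between 300 and 500 bp.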

How the data were processed

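Region lists from SNPC-4 ChIP-seq were used in build ce11: a pooled candidate list, 1 candidate list for each of 2 replicates (30000 entries each), and 2950 entries that passed the IDR filter. All are deposited in narrowPeak form. Per the labels' listing, candidates were called against a control, and the control library was not analysed here. Which aligner, peak caller and IDR threshold were used is not given in the sources used here. The signal is the score deposited by the authors for each region. The −log10 q-value deposited by the authors was 3.90 for every IDR entry and served no ranking. The summit is an offset from the region's start in the deposited lists and was converted to a 1-based position. The IDR entries were exactly the 2950 strongest pooled entries, with 84.4 as the lowest signal. No read counts are given, so the depth is unknown and the precision it gives cannot be stated.

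Gene models were RefSeq's for WBcel235, which is the ce11 assembly. A gene's value is its strongest summit within 500 bp of any annotated 5' end. Its replicate value is the strongest replicate region whose summit lies inside that pooled region. Shares carry exact Clopper-Pearson 95% intervals. The limit given for a count of 0 among 12 is instead an approximation, 3 divided by 12. No test was run, and the spread over the 2 replicates of the 1 group is given as an SD. Python 3.11.15, numpy 2.4.6, pandas 2.3.3 and scipy 1.17.1 were used. The assignment of summits was tested on simulated data.

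All genes with an IDR peak are named with values, as are the 5 strongest candidates, every gene without a candidate, protein-coding neighbours of the peaks and the 3 strongest genes of each list. Windows at summits were picked for 6 genes, of which 4 are shown, and the 30 bases before the 5' end were read for 9 genes, of which the 2 that end in TTTCAG are shown. In the translation list 10 of 35 names matched no gene. The genes and lists were chosen with earlier results of these data known. Alternatives were other distances, regions over the 5' end, the gene interval's 5' end, the nearest or each peak once, the stronger 1475 peaks, each replicate alone, removal of peaks near structural RNA genes or nearer another gene, genes with no gene upstream, autosomal genes and, added after the data had been seen, the Ensembl annotation.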

Additional observations from a re-analysis of the deposited data

How the results depend on the processing

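The ratio of IDR shares, mitochondrial ribosomal protein genes over other genes, was 2.26. With summits within 100 bp it turned to 0.914 with 1 gene left, the ratio among genes with a candidate was 0.316 and the median relative signal 0.656. Within 250 bp the ratios were 3.099 and 1.10. Where regions had to cover the 5' end they were 3.94 and 1.29, and for genes with no same-strand gene upstream 3.03 and 1.19. The stronger 1475 peaks left 3 genes, with ratios of 1.16 and 0.504. Leaving out a replicate gave 9 to 13 genes, ratios of 1.90 to 2.43 and 0.888 to 1.02, a median relative signal of 0.745 to 0.831 and a median position of -204 to -156.5 bp. Removing peaks near structural RNA genes, removing peaks nearer another gene, a distance of 1000 bp, the gene interval's 5' end, autosomal genes and the Ensembl annotation (12 of 70 genes) gave ratios of 2.06 to 2.44 and, among candidates, 0.951 to 1.06. The cause of these shifts was not tested. No paired analysis was possible because there was 1 group.

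With 2 replicates, 71 genes and no read counts, shares of small groups are imprecise, weak summits below the end of a list cannot be seen, and the peak caller's score sets every ranking.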

Other observations

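The annotation gives 52 of the 71 genes a systematic protein name, whose prefix marks proteins shared by all ribosomes (u), those of bacterial type (b) and those of mitochondria (m). Split this way, after the values had been seen, IDR peaks lay at 6 of 9 genes with prefix b (mrpl-17, mrpl-28, mrpl-32, mrpl-35, mrps-6 and mrps-16), at 1 of 23 with prefix u (mrps-7) and at 3 of 20 with prefix m (mrpl-49, mrps-31 and mrps-35). The other 3 genes with prefix b (mrpl-9, mrpl-19 and mrpl-21) had a candidate, whereas 4 genes with prefix u and 5 with prefix m had none. The split has no test and leaves out the genes whose annotated product carries no such name, of which mrpl-13 and mrpl-55 had an IDR peak. The low-numbered mrpl-1, mrpl-12, mrpl-20, mrpl-30, mrpl-36, mrps-11, mrps-18.C, mrps-18A, mrps-18B and mrps-21 also lack such a name and had no IDR peak. The counts by prefix thus depend on how the products are worded. Among all other protein-coding genes 7.49% had an IDR peak.

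For 3 genes without an IDR summit within 500 bp the next one lay farther out but within 1000 bp, at 509 bp for mrpl-12, 660 bp for mrpl-15 and 832 bp for mrpl-23. None of the 71 genes is on the X chromosome, where 4.69% of 2730 other protein-coding genes had an IDR peak, against 7.87% of 17170 on the autosomes.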
